A study of Mus musculus with 54 samples.

Results

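Regulators of G-protein signalling (RGS proteins) were examined in the suprachiasmatic nucleus (SCN) of the mouse, a small paired nucleus of the hypothalamus that keeps circadian time for the body. The 10 genes were *Rgs2*, *Rgs4*, *Rgs6*, *Rgs7*, *Rgs8*, *Rgs9*, *Rgs10*, *Rgs14*, *Rgs16* and *Rgs17*, taken by symbol from the 30031 genes of the count table, and all 10 passed the filter on low counts. The SCN was laser-captured from male C3H/HeH mice of 10 to 12 weeks kept in a light/dark cycle. The 6 groups, ZT2, ZT6, ZT10, ZT14, ZT18 and ZT22 (Zeitgeber time in hr after lights on), had 3 replicates each, and each replicate (named A, B or C) was RNA pooled from 5 mice. No treatment or genotype was compared, and the column names of the counts mark every replicate WT, read as wild type. Time of day was the labelled difference between the groups, with ZT2 to ZT10 in light and ZT14 to ZT22 in darkness.

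A heterotrimeric G protein carries the signal of a receptor while its alpha subunit holds GTP. RGS proteins speed the hydrolysis of that GTP and so shorten the signal, and subfamilies differ in size and in the alpha subunits they act on. In the SCN, neuropeptide and transmitter receptors act through G proteins of the Gs, Gi/o and Gq classes, and *Rgs16* is known for acting on Gi in the dorsal SCN, where it bears on the daily course of cAMP.

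The reads counted on genes ranged from 15412981 in ZT18 replicate C up to 35820945 in ZT14 replicate A. Expression is given as CPM (read counts scaled to the library total, after TMM), with the SD of n = 3 replicates. In a principal component analysis the replicates formed 3 clusters, joining ZT22 to ZT2, ZT6 to ZT10, and ZT14 to ZT18, with ZT18 replicate C apart from the rest. Steps from one cluster to the next cannot be told apart from any technical difference that follows the clusters, and steps inside a cluster do not cross them. The labels name no batch. The authors deposited a count table and a normalized table, and the reads behind them differed mainly at ZT6 and ZT10. They were identical for 36.8% to 47.1% of shared genes in the ZT6 and ZT10 replicates and for 94.7% to 96.3% in the others. A difference between the tables thus follows the cluster of ZT6 and ZT10. The study describes its own principal component plot as separating the data by timepoint and by sequencing batch, and judged batch effects minimal. Which replicates shared a batch is not given in the labels, so whether a technical difference also lies inside a cluster cannot be told. The summed level of 9 SCN neuron markers, all of them detected in all 18 replicates, was 8228 to 8908 CPM at ZT6 and 4327 to 5951 CPM at ZT14. In pooled tissue, fewer cells of a type and less RNA per cell cannot be told apart.

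Expression differed between the timepoints in 6 of the 10 genes, *Rgs16*, *Rgs4*, *Rgs8*, *Rgs9*, *Rgs10* and *Rgs14* (edgeR quasi-likelihood test that the 6 timepoint means are equal, Benjamini–Hochberg adjusted p under 0.05), where 44.0% of the 18941 tested genes passed. The genes peaked at different times. *Rgs16* and *Rgs10* were highest at ZT6, *Rgs8*, *Rgs9* and *Rgs14* at ZT14, and *Rgs4* at ZT22. The median ratio of the highest to the lowest timepoint mean was 4.50 over the 10 genes and 3.01 over the 16881 tested genes with a mean above 0 at every timepoint. A joint test of the 3 steps inside clusters was passed by *Rgs16* alone among the 10, where 0.116% of tested genes passed. At an unadjusted p under 0.05 the same test was met by *Rgs16*, *Rgs4*, *Rgs8* and *Rgs14*, 4 of 10, and by 11.7% of tested genes. Without ZT18 replicate C the time test called 7 of the 10, *Rgs7* being the addition.

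**Figure D1:**
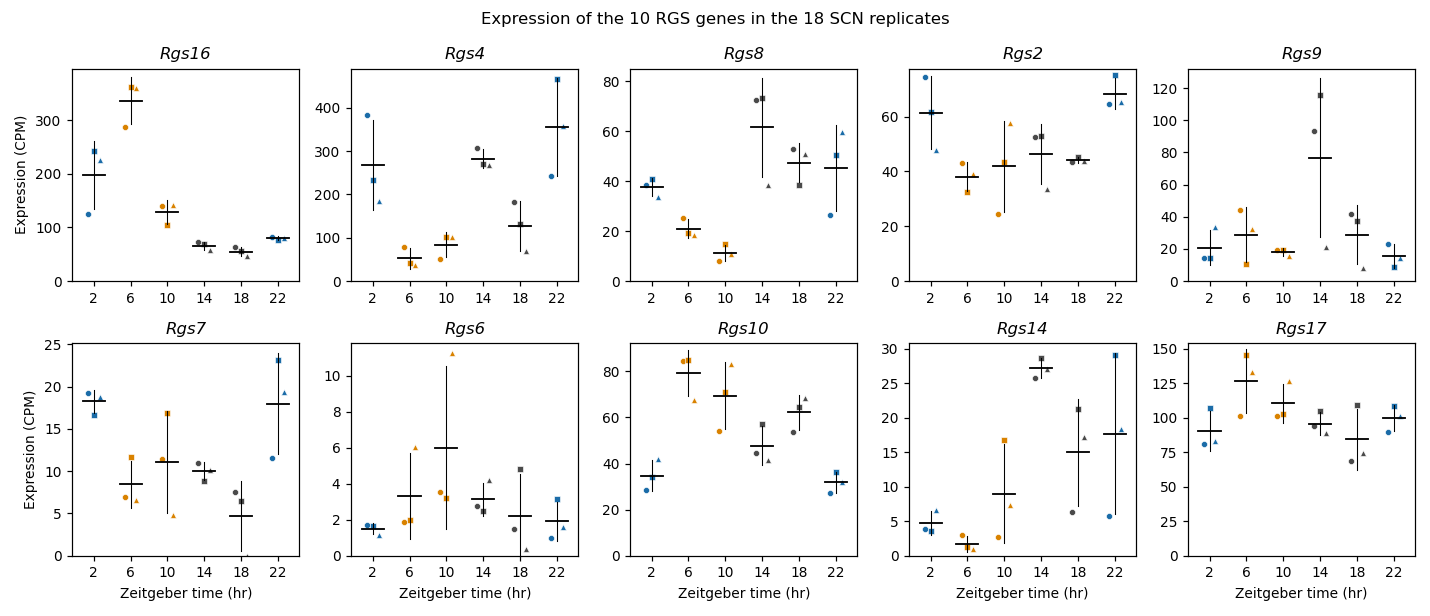
Expression (CPM, linear axes from 0) of each RGS gene at 6 Zeitgeber times; circles, squares and triangles are replicates A, B and C, horizontal bars the means and vertical bars the SD (n = 3, cut at 0), with colours for the 3 clusters of replicates. *Rgs16* stood between 287 and 362 CPM at ZT6 and between 46.7 and 62.6 CPM at ZT18, while *Rgs4* was lowest at ZT6.

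*Rgs16*, *Rgs4*, *Rgs8* and *Rgs2* belong to the R4 subfamily, small proteins that consist of little more than the RGS domain. These 4 genes all lie on chromosome 1 (GRCm38). *Rgs16* (chr1:153740349-153745468, plus strand, 5 merged exons) lies 40025 bp above *Rgs8* (chr1:153653025-153700323, plus strand), the protein-coding gene next to it on that side. *Rgs4* (chr1:169741477-169747642, minus strand) has *Rgs5* as its neighbour at a distance of 45663 bp, and *Rgs2* lies at chr1:143999338-144004161 on the minus strand.

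The promoters of *Rgs16*, *Rgs8* and *Rgs4* are shown because neighbouring or related genes gave unlike time courses. They are RefSeq promoter bases on GRCm38.p6, upstream of the annotated start, written 5′ to 3′ on the strand of the gene. The windows are chr1:153740103-153740348 for *Rgs16*, chr1:153652787-153653024 for *Rgs8* and chr1:169747643-169747892 for *Rgs4*. Capitals mark TGACG or its reverse complement CGTCA, the core of the cAMP response element (CRE).
Rgs16: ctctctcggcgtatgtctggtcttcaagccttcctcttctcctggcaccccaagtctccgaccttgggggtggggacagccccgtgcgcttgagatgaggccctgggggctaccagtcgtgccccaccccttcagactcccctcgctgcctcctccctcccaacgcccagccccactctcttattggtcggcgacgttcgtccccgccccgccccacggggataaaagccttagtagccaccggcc
Rgs8: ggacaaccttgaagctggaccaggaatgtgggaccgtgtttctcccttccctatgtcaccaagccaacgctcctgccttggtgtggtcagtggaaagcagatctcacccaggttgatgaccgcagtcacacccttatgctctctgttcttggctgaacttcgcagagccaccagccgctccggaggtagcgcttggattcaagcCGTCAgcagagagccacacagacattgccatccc
Rgs4: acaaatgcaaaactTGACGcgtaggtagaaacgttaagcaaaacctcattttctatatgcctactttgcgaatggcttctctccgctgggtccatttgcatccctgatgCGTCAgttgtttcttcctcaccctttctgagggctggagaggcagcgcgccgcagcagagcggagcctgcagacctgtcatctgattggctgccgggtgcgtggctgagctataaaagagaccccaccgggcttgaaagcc

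The table of promoters held 9 of the 10 genes, with 11 promoters, 3 of them for *Rgs8*. In the 250 bases before the start, on both strands, the CRE core was found in 3 of these 11, and in 17.8% of all 32851 promoters. It had 2 matches each for *Rgs4* and *Rgs2* and 1 for the first of the *Rgs8* promoters. The E-box CACGTG, the letters bound by the clock proteins CLOCK and BMAL1, was found once, in *Rgs7*, and in 6.02% of all promoters. AGGTCA, the core of the sites for ROR and REV-ERB receptors, was found in another *Rgs8* promoter and in 14.0% of all. None of the 3 motifs was in the *Rgs16* window, which says only that these letters are not among those bases.

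*Rgs16* acts on Gi and Gq alpha subunits. Its replicates A, B and C had 125, 243 and 225 CPM at ZT2, 287, 362 and 360.0 CPM at ZT6, and 140.4, 104 and 143 CPM at ZT10. They had 71.9, 68.7 and 57.4 CPM at ZT14, 62.6, 55.4 and 46.7 CPM at ZT18, and 82.7, 76.5 and 81.0 CPM at ZT22. Every replicate at ZT6 was above every other replicate of the series, and the 3 timepoints in light did not overlap those in darkness. The mean was 336 ± 43.0 CPM at ZT6 and 54.9 ± 7.97 CPM at ZT18, a ratio of 6.13 (time test, edgeR adjusted p = 1.33e-07). Its JTK_CYCLE p, for a 24 hr rhythm, was 1.40e-07 with the best fit at ZT6.

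The level of *Rgs16* rose from ZT22 to ZT2 by 1.31 ± 0.22 (log2 ± SE; edgeR adjusted p = 0.0394) and again from ZT2 to ZT6 by 0.76 ± 0.21 (adjusted p = 0.0104). It then fell from ZT6 to ZT10 (−1.38 ± 0.22, adjusted p = 0.0228) and from ZT10 to ZT14 (−0.96 ± 0.22, adjusted p = 0.00478). The rise to ZT2 and the fall to ZT10 lie inside clusters, where 0.0317% and 0.0475% of tested genes passed in either direction, and the joint test inside clusters gave an adjusted p of 0.00492. SCN neuron markers summed to 8228 to 8908 CPM at ZT6 and 7316 to 9717 CPM at ZT10, which overlap. They summed to 8834 to 9825 CPM at ZT22 and 8924 to 14440 CPM at ZT2, which also overlap. Of the 9 markers, 8 themselves passed the time test, so these sums do not measure the share of SCN tissue apart from time of day. The joint test held without any 1 of the 18 replicates (highest adjusted p = 0.0226), but the rise from ZT22 to ZT2 by itself was less stable. It kept its call only when the replicate left out was ZT2 A, ZT6 A, ZT6 C, ZT10 B, ZT14 C, ZT18 A or ZT18 C, and the highest adjusted p was 0.338. The fall from ZT6 to ZT10 lost its call without ZT6 B, ZT6 C or any ZT10 replicate, with an adjusted p of at most 0.167. From ZT18 to ZT22 the replicates did not overlap, yet the step did not pass the test (0.54 ± 0.22, adjusted p = 0.0906).

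*Rgs8*, the neighbour of *Rgs16*, was highest at ZT14 and lowest at ZT10. The annotation holds *Gm28513*, an antisense transcript that shares 236 exon bp with *Rgs16* and was not in the count table. The library kit does not mark strand, so reads of *Gm28513* and *Rgs16* cannot be told apart there.

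*Rgs4*, abundant in neurons and also acting on Gi and Gq, was lowest at the timepoint at which *Rgs16* was highest. Its replicates A, B and C had 384, 234 and 184 CPM at ZT2, 79.5, 41.3 and 36.1 CPM at ZT6, and 50.8, 100.7 and 102 CPM at ZT10. They had 308, 271 and 268 CPM at ZT14, 183, 131 and 68.5 CPM at ZT18, and 242, 467 and 359 CPM at ZT22. All replicates at ZT2, ZT14 and ZT22 were above all at ZT6, ZT10 and ZT18. The means ran from 52.3 ± 23.7 CPM at ZT6 to 356 ± 113 CPM at ZT22, a ratio of 6.80 (edgeR adjusted p = 7.98e-05).

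Expression of *Rgs4* fell from ZT2 to ZT6 (−2.35 ± 0.40, edgeR adjusted p = 0.000182), rose from ZT10 to ZT14 by 1.74 ± 0.39 (adjusted p = 0.00461) and rose from ZT18 to ZT22 by 1.48 ± 0.38 (adjusted p = 0.0118). Without ZT22 replicate B the last step was 1.23 and did not pass (adjusted p = 0.0649). The change from ZT14 to ZT18 inside a cluster was −1.15 ± 0.38, with no overlap between replicates and without passing the test (adjusted p = 0.172). Twin-peaking genes were those past the time test with ZT14 and ZT22 as their top means. *Rgs4* and *Rgs14* met this rule, 2 of 10, where 2.15% of tested genes did. For *Rgs4* the rule rests on a mean of 282 ± 22.3 CPM at ZT14 against 267 ± 104 CPM at ZT2, which differ by less than their spread, and it was not met without ZT2 replicate B or without ZT2 replicate C. It was also not met with DESeq2 size factors, with upper-quartile scaling, where *Rgs8* took its place, or with no filter on low counts. JTK_CYCLE gave *Rgs4* a p of 0.180, so it was not called cycling.

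The contrast between *Rgs16* and *Rgs4* does not depend on how libraries were scaled, because both were read in the same library. Per kb of merged exon, *Rgs16* was 4.77, 11.6 and 13.2 times *Rgs4* in replicates A, B and C at ZT6. The same ratio was 3.66, 1.36 and 1.86 at ZT10 and 0.433, 1.37 and 1.62 at ZT2. It was 0.309, 0.336 and 0.284 at ZT14, 0.452, 0.562 and 0.902 at ZT18, and 0.453, 0.217 and 0.299 at ZT22. The ratio was above 1 in 8 of the 9 replicates taken in light and in none of the 9 taken in darkness. At ZT6, *Rgs16* made up 59.4% ± 6.06 (SD, n = 3) of the summed CPM per kb of the 10 genes and *Rgs4* 7.06% ± 3.43, and at ZT22 the shares were 16.6% ± 4.18 and 53.1% ± 6.22. These shares are descriptions and were not tested.

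**Figure D2:**
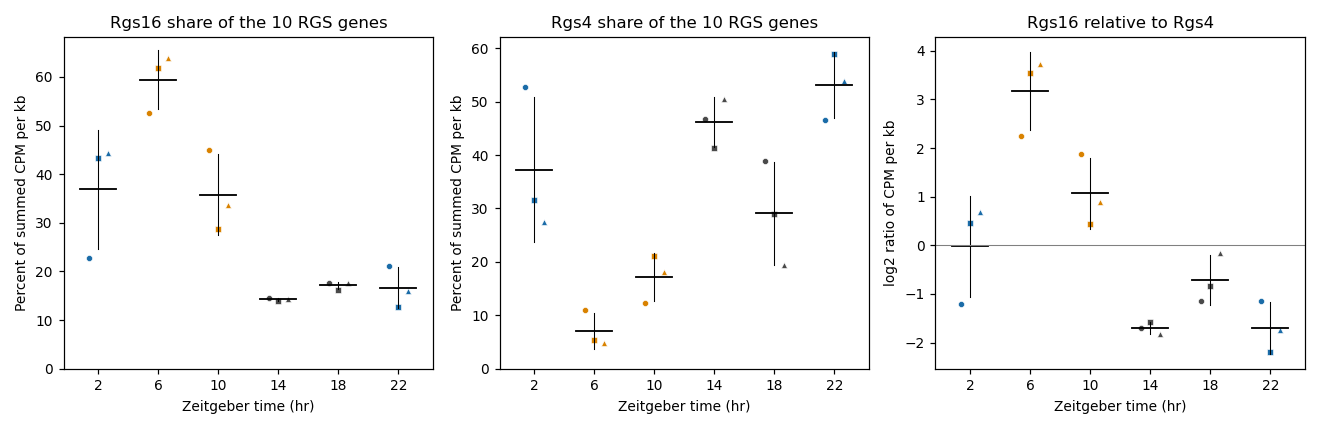
Shares of *Rgs16* and *Rgs4* in the summed CPM per kb of the 10 RGS genes (percent, axes from 0) and the log2 ratio of *Rgs16* to *Rgs4* per kb, in each replicate at 6 Zeitgeber times; bars are means and SD (n = 3), and symbols and colours are those of the plot of CPM by gene. The log2 ratio was 3.17 ± 0.80 at ZT6 and −1.70 ± 0.53 at ZT22.

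*Rgs8*, which acts on Gi/o and is known for its effect on the kinetics of G-protein-gated potassium channels, fell towards ZT10 and was higher in darkness. Its replicates A, B and C had 38.4, 40.8 and 33.7 CPM at ZT2, 25.3, 19.04 and 18.6 CPM at ZT6, and 8.10, 14.7 and 10.7 CPM at ZT10. They had 72.5, 73.4 and 38.6 CPM at ZT14, 52.9, 38.4 and 50.8 CPM at ZT18, and 26.3, 50.4 and 59.5 CPM at ZT22. The ZT10 replicates were below all others of the series. The level rose from ZT10 to ZT14 by 2.46 ± 0.32 (edgeR adjusted p = 6.43e-05), after falling from ZT2 to ZT6 (−0.84 ± 0.31, adjusted p = 0.0421). The latter was −0.65 and not past the test on the reads recovered from the normalized table (adjusted p = 0.108), and it was also lost without ZT2 A, ZT2 B, ZT6 B, ZT6 C, ZT10 C or ZT22 B, and with the replicate letter as a block. From ZT6 to ZT10, inside a cluster, *Rgs8* changed by −0.91 ± 0.31 with no overlap between replicates (adjusted p = 0.365), beside −1.38 for *Rgs16* at the same step. *Rgs8* passed the time test (adjusted p = 7.92e-05) and JTK_CYCLE (p = 0.0421, from its exact null distribution, best fit ZT18).

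*Rgs2*, which prefers Gq, was the R4 gene with the smallest range. Its means ran from 38.1 ± 5.34 CPM at ZT6 to 68.4 ± 5.75 CPM at ZT22, a ratio of 1.79, and did not pass the time test (edgeR adjusted p = 0.0597). The ZT22 replicates (64.7, 75.0 and 65.4 CPM) were above those at ZT6, ZT10, ZT14 and ZT18, where the highest had 57.7 CPM. With DESeq2 in place of edgeR, with 2 other scalings and with 2 other filters the adjusted p was between 0.0140 and 0.0471, so *Rgs2* lies close to the threshold.

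**Figure D3:**
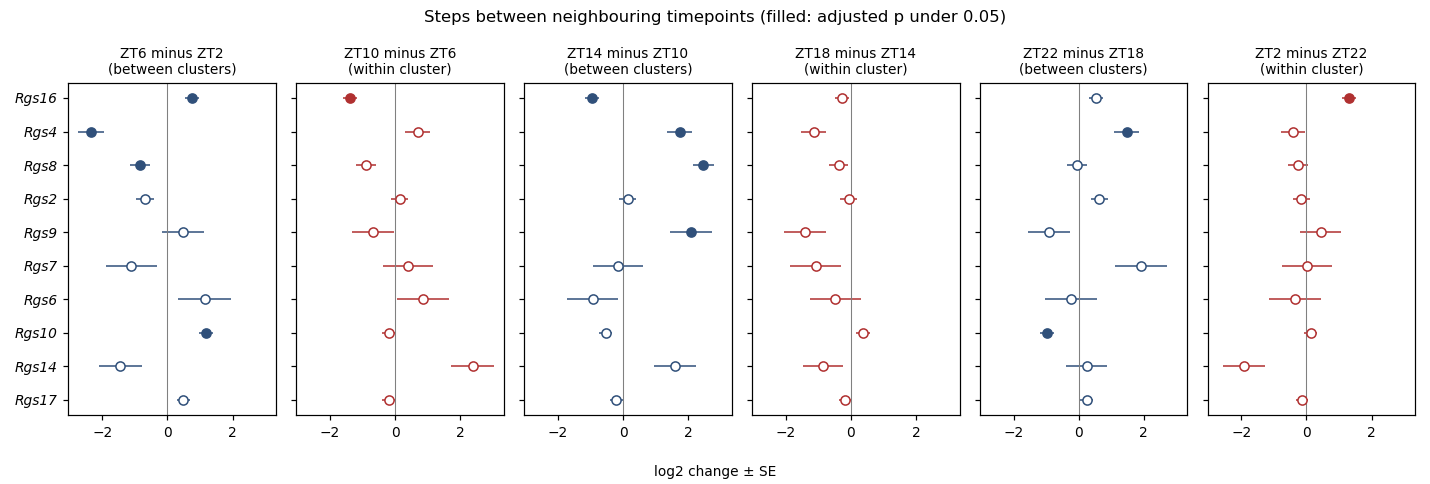
Log2 change ± SE (edgeR) of each RGS gene between neighbouring timepoints, later minus earlier; red marks steps inside a cluster of replicates, blue steps between clusters, and filled points an adjusted p under 0.05. *Rgs16* has the 2 filled points among the steps inside clusters, −1.38 from ZT6 to ZT10 and 1.31 from ZT22 to ZT2.

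Over the whole set, 4 of the 10 genes were called from ZT2 to ZT6, where 33.8% of tested genes were, 2 higher (*Rgs16* and *Rgs10*) and 2 lower (*Rgs4* and *Rgs8*), beside 17.5% and 16.3% of tested genes. From ZT6 to ZT10, *Rgs16* fell, where 0.0211% of tested genes fell and 0.0264% rose. From ZT10 to ZT14, *Rgs4*, *Rgs8* and *Rgs9* rose, where 9.31% of tested genes did, and *Rgs16* fell, where 7.52% did. From ZT18 to ZT22, *Rgs4* rose and *Rgs10* fell, beside 6.27% and 11.9% of tested genes. From ZT14 to ZT18 none of the 10 was called by edgeR or by DESeq2, and 0.57% of tested genes were called by edgeR. At an unadjusted p under 0.05 there were 2 of the 10, *Rgs4* and *Rgs9*, and 13.5% of tested genes. The median log2 change of the 10 genes at that step was −0.43, against −0.01 over all tested genes. For the 10 genes it was −0.10 from ZT2 to ZT6, −0.03 from ZT6 to ZT10 and 0.0003 from ZT10 to ZT14. It was 0.24 from ZT18 to ZT22 and −0.15 from ZT22 to ZT2. Over all tested genes the medians of these other steps lay between −0.04 and 0.12. The medians were not tested, and ZT18 includes replicate C, which stood apart in the principal component analysis.

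*Rgs9*, *Rgs7* and *Rgs6* belong to the R7 subfamily, larger proteins that are stable in complex with the beta subunit Gnb5 and are held at membranes by adaptors such as the *Rgs7bp* product. *Rgs9* (chr11:109225355-109298129, minus strand) is known from photoreceptors and, as a longer isoform, from striatal neurons, where it acts downstream of dopamine receptors. Its replicates A, B and C had 93.4, 116 and 21.1 CPM at ZT14, the timepoint with the highest mean, 76.8 ± 49.5 CPM. They had 14.6, 14.2 and 33.5 CPM at ZT2, 44.1, 10.3 and 32.4 CPM at ZT6, and 19.3, 19.6 and 15.3 CPM at ZT10. At ZT18 they had 41.4, 37.2 and 7.81 CPM and at ZT22 23.3, 8.56 and 14.4 CPM. ZT14 replicates A and B were above all others of the series, and replicate C lay within the range of every other timepoint but ZT10.

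The rise of *Rgs9* from ZT10 to ZT14 was 2.09 ± 0.66 (edgeR adjusted p = 0.0358) and its time test gave an adjusted p of 0.0322. Without ZT14 replicate A the time test gave 0.132, without ZT14 replicate B 0.209, and without ZT2 B, ZT10 B, ZT10 C, ZT22 B or ZT22 C between 0.0504 and 0.0604. The step lost its call without any ZT10 replicate and without ZT14 A or B (adjusted p at most 0.131). Genes typical of striatal neurons were high in the same libraries. *Penk*, an enkephalin precursor, had 1226, 1392 and 171 CPM in ZT14 replicates A, B and C, and *Ppp1r1b*, the dopamine signalling protein DARPP-32, had 229.9, 337 and 20.8 CPM. The summed level of 9 striatal and telencephalic neuron markers was 1715, 2045 and 430 CPM in these replicates, and 182 to 820.0 CPM in the other 15. *Penk* made up most of this sum in ZT14 replicates A and B and in ZT6 replicate A (547 CPM), so the sum is not separate from *Penk*. Of the 9 markers, 5 passed the time test, and *Drd2* was at 0 in 3 replicates and *Adora2a* in 2 of them. At ZT6, replicate A was highest for *Rgs9* and for the summed markers (820.0 CPM), and at ZT2 replicate C was highest for both (245 CPM). At ZT10, ZT18 and ZT22 the order differed. ZT18 replicate C had the lowest *Rgs9* of its timepoint and the highest summed markers (693 CPM), and ZT22 replicate A had the highest *Rgs9* and the lowest summed markers (229 CPM). The part of these markers in the *Rgs9* result was not tested.

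*Slc17a7* and *Neurod6*, markers of cortical and hippocampal excitatory neurons in the same list, were high beside *Rgs4*. *Slc17a7* had 61.0 ± 18.9 CPM at ZT14 and 51.9 ± 29.2 CPM at ZT22, and 9.70 ± 2.42 CPM at ZT6. *Neurod6* had 41.4 ± 34.9 CPM at ZT14, 70.7 ± 43.8 CPM at ZT22 and 1.29 ± 1.10 CPM at ZT6. Among the ZT22 replicates, B was highest for *Rgs4* and for both markers (79.8 CPM for *Slc17a7* and 108 CPM for *Neurod6*), and A was lowest for all 3 genes. At ZT14, replicate C was highest for both markers and lowest for *Rgs4*. At ZT2, where *Rgs4* had 267 CPM, *Slc17a7* had 12.3 to 22.0 CPM and *Neurod6* 27.7 ± 14.4 CPM. *Neurod6* thus had its 3 highest means at the 3 timepoints at which *Rgs4* had its own. *Slc17a7* also passed the joint test inside clusters (edgeR adjusted p = 0.0343). Their part in the *Rgs4* result was not tested.

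**Figure D4:**
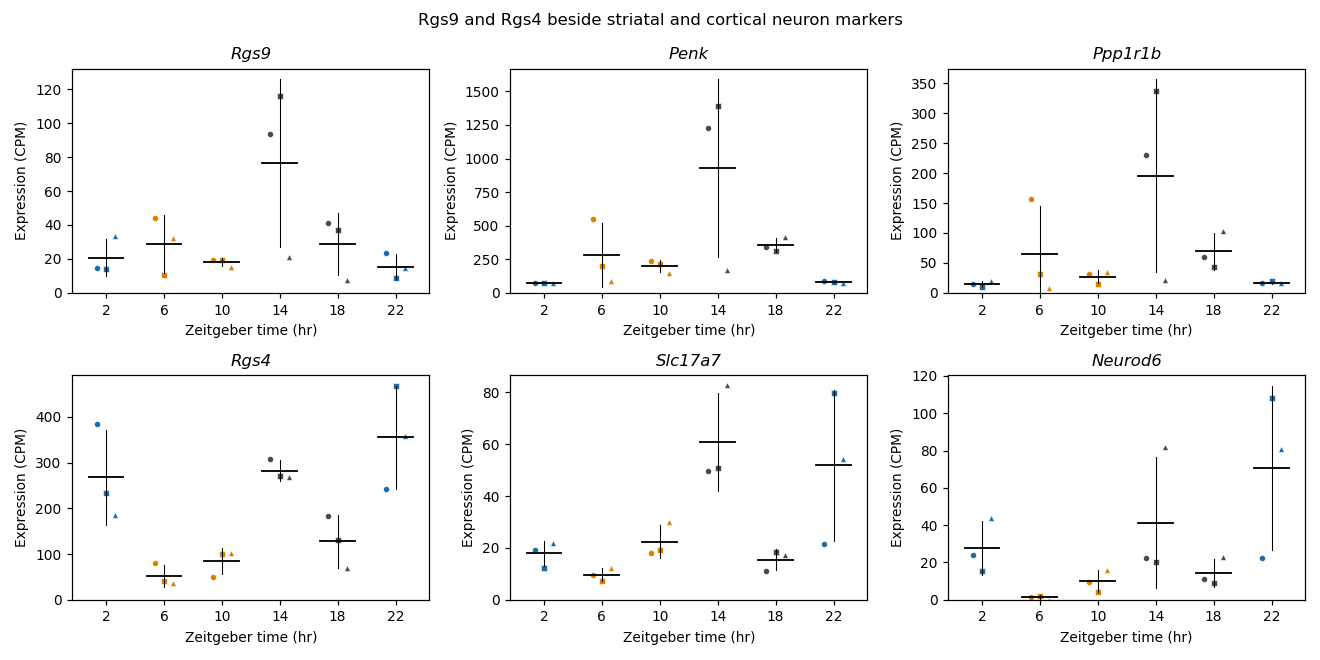
Expression (CPM, axes from 0) of *Rgs9* beside the striatal markers *Penk* and *Ppp1r1b*, and of *Rgs4* beside the excitatory neuron markers *Slc17a7* and *Neurod6*, in each replicate; bars are means and SD (n = 3, cut at 0), and symbols and colours are those of the plot of CPM by gene. *Rgs9*, *Penk* and *Ppp1r1b* were all high in ZT14 replicates A and B and low in replicate C.

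*Rgs7* and *Rgs6* were low and did not pass the time test. *Rgs7*, a regulator of Gi/o in many neurons, had means between 4.69 ± 4.10 CPM at ZT18 and 18.3 ± 1.41 CPM at ZT2 (edgeR adjusted p = 0.280). In ZT18 replicate C *Rgs7* had 0 reads, while the other 17 replicates had between 4.81 and 23.2 CPM. Without that replicate the adjusted p was 0.0314. *Rgs6* had 6 to 238 reads per replicate, with means between 1.50 ± 0.30 CPM at ZT2 and 6.00 ± 4.54 CPM at ZT10 (adjusted p = 0.268). Replicate C was the highest *Rgs6* value at ZT6 (6.06 CPM) and at ZT10 (11.2 CPM).

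Of the 5 partners of R7 proteins, all tested, 3 passed the time test, where 44.0% of all tested genes did. All 3 were highest at ZT14 and lowest at ZT6. The marker *Slc17a7* was highest and lowest at the same timepoints and met the twin-peaking rule, and its part in these results was not tested. *Rgs7bp* had 109 ± 5.75 CPM at ZT14, 44.2 ± 5.90 CPM at ZT18 and 107 ± 41.1 CPM at ZT22, and 32.5 ± 8.65 CPM at ZT6. It fell from ZT14 to ZT18 by 1.31 on the log2 scale inside a cluster, where 0.412% of tested genes fell, and met the twin-peaking rule. The call at this step was lost without ZT2 C, ZT22 C or any replicate of ZT14 or ZT18 (adjusted p at most 0.136) and with upper-quartile scaling, and the joint test inside clusters gave an adjusted p of 0.0770. *Gpr158*, an orphan receptor that binds *Rgs7*, also met the rule, with 80.1 ± 18.95 CPM at ZT14 and 40.2 ± 4.06 CPM at ZT6. *Gnb5* had 174 ± 44.7 CPM at ZT14 and 60.3 ± 36.5 CPM at ZT6 (adjusted p = 0.0457). *Rgs9bp*, the photoreceptor anchor of *Rgs9*, was at or under 0.28 CPM on average at every timepoint.

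*Rgs10* and *Rgs14* belong to the R12 subfamily and act on Gi/o. *Rgs10* (chr7:128373621-128418758, minus strand), a small protein known from microglia and neurons, shared the peak of *Rgs16* with a smaller ratio, 2.48. Its replicates A, B and C had 28.3, 34.3 and 41.8 CPM at ZT2, 84.6, 85.1 and 67.5 CPM at ZT6, and 54.0, 71.0 and 83.0 CPM at ZT10. They had 44.7, 57.2 and 41.5 CPM at ZT14, 53.8, 64.4 and 68.4 CPM at ZT18, and 27.4, 36.4 and 31.9 CPM at ZT22. The ZT6 replicates were above all at ZT2, ZT14 and ZT22. *Rgs10* rose from ZT2 to ZT6 by 1.18 ± 0.21 (edgeR adjusted p = 0.000293) and fell from ZT18 to ZT22 (−0.96 ± 0.21, adjusted p = 0.00345), and both steps lie between clusters. The time test gave an adjusted p of 0.000180 and JTK_CYCLE a p of 0.0239, with the best fit at ZT10.

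The 7 microglia markers summed to 233 to 268 CPM at ZT2 and 212 to 277 CPM at ZT22, where *Rgs10* was low, and to 105 to 236 CPM at ZT6 and 155 to 185 CPM at ZT10, where it was high, and none of the 7 was at 0 in any replicate. The sum was made up mostly of *P2ry12* and *Cx3cr1* at ZT2 and ZT22. *C1qa*, a complement gene of the same list, had 5.61 ± 2.48 CPM at ZT2, 23.8 ± 17.2 CPM at ZT6, 37.4 ± 8.16 CPM at ZT10 and 9.01 ± 2.52 CPM at ZT22, and it rose from ZT2 to ZT6 (2.08 ± 0.48, edgeR adjusted p = 0.00246). The part of these markers in the *Rgs10* result was not tested. The gene *Gm15503* lies within an intron of *Rgs10* and had 151 reads over all replicates.

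*Rgs14* (chr13:55369732-55384687, plus strand), which also binds Ras-family proteins and is known from hippocampal neurons, had the largest ratio of highest to lowest timepoint mean among the 10 genes, 15.8, at a low level. It had 25.8, 28.7 and 27.1 CPM at ZT14 and 2.99, 1.23 and 0.946 CPM at ZT6 in replicates A, B and C. It had 3.85, 3.57 and 6.70 CPM at ZT2 and 2.77, 16.8 and 7.41 CPM at ZT10. It had 6.40, 21.3 and 17.3 CPM at ZT18 and 5.76, 29.1 and 18.3 CPM at ZT22. The ZT14 replicates lay close together, while replicate A was lowest at ZT10, ZT18 and ZT22. The time test gave an adjusted p of 0.00156 and JTK_CYCLE a p of 0.0130, with the best fit at ZT18, so *Rgs14* was called both cycling and twin-peaking. No step between neighbouring timepoints passed, the nearest being that from ZT10 to ZT14 (1.60 ± 0.64, edgeR adjusted p = 0.0964). Inside clusters the changes were 2.38 ± 0.67 from ZT6 to ZT10 and −1.91 ± 0.65 from ZT22 to ZT2, and the joint test gave an adjusted p of 0.141 with edgeR, 0.00312 with DESeq2 and 0.0414 with no filter on low counts. *Rgs14* was not called twin-peaking without ZT18 A or without ZT22 B. The excitatory neuron marker *Slc17a7* also had its highest mean at ZT14 and its lowest at ZT6. Its replicate A was likewise lowest at ZT10, ZT18 and ZT22 (21.5, 79.8 and 54.4 CPM in A, B and C at ZT22). At ZT6, replicate C was highest for *Slc17a7* and lowest for *Rgs14*. *Neurod6* was lowest in A at ZT22 but in B at ZT10 and ZT18. The part of these markers in the *Rgs14* result was not tested.

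*Rgs17* (chr10:5825663-5922400, minus strand), of the RZ subfamily that acts on Gz and other Gi-class subunits, was the steadiest of the 10. Its means ran from 84.3 ± 21.9 CPM at ZT18 to 127 ± 23.0 CPM at ZT6, a ratio of 1.50 with overlapping replicates (edgeR adjusted p = 0.143). Its largest step, from ZT2 to ZT6, was 0.48 ± 0.20 (adjusted p = 0.0658). With DESeq2 the time test gave an adjusted p of 0.0407, past the threshold.

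With the time test and JTK_CYCLE together, *Rgs16*, *Rgs8*, *Rgs10* and *Rgs14* were called cycling, 4 of 10, where 29.9% of tested genes were. The JTK_CYCLE p alone was under 0.05 for 6 of 10, *Rgs2* and *Rgs6* being the others, and for 37.4% of tested genes. *Rgs8* lost the cycling call under 7 processing alternatives, among them both other scalings, and in 13 of the 18 fits without a replicate, all but those without ZT10 C, ZT14 A, ZT14 B, ZT18 B or ZT22 A. *Rgs10* lost it on the reads recovered from the normalized table and without ZT2 C, ZT22 A or ZT22 C. Of the 4, *Rgs16* kept the call with a Benjamini–Hochberg adjustment of the JTK_CYCLE p, and with the values normalized by the authors *Rgs16* and *Rgs14* did.

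Levels were compared between genes per kb of merged exon over all 18 replicates. The order by median was *Rgs4* (59.4 CPM per kb), *Rgs16* (39.8), *Rgs10* (31.5), *Rgs2* (12.9), *Rgs17* (12.2), *Rgs8* (3.98), *Rgs9* (3.19), *Rgs7* (1.87), *Rgs14* (1.66) and *Rgs6* (0.222). Neighbours in this order mostly overlapped. *Rgs4* exceeded *Rgs16* in 10 of 18 replicates, *Rgs2* exceeded *Rgs17* in 11, *Rgs8* exceeded *Rgs9* in 7 and *Rgs7* exceeded *Rgs14* in 8. The clear breaks were between *Rgs17* and *Rgs8*, with *Rgs17* above in all 18, between *Rgs14* and *Rgs6*, with *Rgs14* above in 17, and between *Rgs10* and *Rgs2*, with *Rgs10* above in 16. The leading gene changed with time. *Rgs16* led at ZT6 (144 CPM per kb) and ZT10 (55.1), *Rgs4* at ZT14 (91.1), ZT18 (41.2) and ZT22 (115), and at ZT2 *Rgs4* (86.3) and *Rgs16* (84.6) differed by less than their spread.

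**Figure D5:**
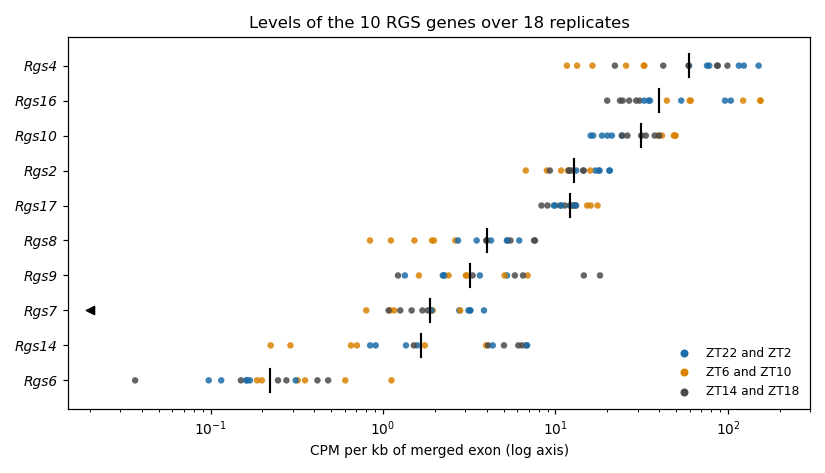
CPM per kb of merged exon (log axis) of the 10 RGS genes in 18 replicates, ordered by the median (black bars); colours mark the 3 clusters of replicates and the triangle at the left edge is *Rgs7* at 0 reads in ZT18 replicate C. *Rgs17* stayed within 8.30 to 17.6 CPM per kb, while *Rgs4* ran from 11.7 to 151.

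Among the other RGS genes, 10 of 11 listed were in the count table and 9 were tested. Of these, 6 passed the time test, where 44.0% of all tested genes did, and none passed the joint test inside clusters (0 at an unadjusted p under 0.05). *Rgs20*, also of the RZ subfamily, was highest at ZT10 (42.5 ± 9.53 CPM) and lowest at ZT22 (11.7 ± 3.86 CPM). *Rgs3*, of the R4 subfamily, had 22.0 ± 2.50 CPM at ZT18 and 6.16 ± 1.91 CPM at ZT2, and *Rgs12*, of the R12 subfamily, 42.9 ± 6.20 CPM at ZT14 and 12.1 ± 4.16 CPM at ZT2. *Rgs5*, the neighbour of *Rgs4* and a gene of pericytes, was lowest at ZT6 like *Rgs4* (172 ± 67.9 CPM) but had 239 ± 10.8 CPM at ZT14 and 389 ± 54.7 CPM at ZT18, where *Rgs4* had 282 and 128 CPM. The 8 endothelial and pericyte markers summed to 93.7 to 99.0 CPM at ZT6 and 107 to 209 CPM at ZT2. They summed to 125 to 144 CPM at ZT14 and 115 to 158 CPM at ZT18. From ZT2 to ZT6, 2 of the 8 were called lower by edgeR, *Pecam1* and *Slco1a4* (76.8 to 21.2 CPM). Another 2, *Cldn5* (2.63 to 12.7 CPM) and *Flt1* (17.6 to 36.8 CPM), were called higher. The part of these markers in the *Rgs5* values was not tested.

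RGS proteins act on G alpha subunits, of which 10 of 15 tested passed the time test, where 44.0% of all tested genes did. *Gnaq*, the Gq subunit, had 557 CPM at ZT22 and 186 CPM at ZT10, a ratio of 3.00. *Gnal*, the olfactory and striatal form of Gs, had 121 ± 55.0 CPM at ZT14 and 42.0 ± 16.9 CPM at ZT10, and met the twin-peaking rule. The striatal and telencephalic markers summed to 430 to 2045 CPM and 311 to 355 CPM at these timepoints, with *Penk* the largest part. The part of these markers in the *Gnal* result was not tested. *Gnaz*, the partner of RZ proteins, had 79.2 CPM at ZT6 and 27.5 CPM at ZT2.

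Of the beta subunits 3 of 4 tested passed the time test, where 44.0% of all tested genes did. *Gnb2* had 201 CPM at ZT6 and 34.3 CPM at ZT2, and *Gnb4* 105 CPM at ZT10 and 30.7 CPM at ZT22. Of the gamma subunits 8 of 10 tested passed, or 5 of 10 without ZT2 replicate B and likewise without ZT14 replicate C. *Gng7*, abundant in striatal neurons, had 405 ± 264 CPM at ZT14 and 37.0 ± 8.60 CPM at ZT10, beside the same marker sums, whose part in the *Gng7* result was not tested. *Gng5* had 119 CPM at ZT6 and 34.3 CPM at ZT2, and *Gng13* 16.2 CPM at ZT18 and 4.18 CPM at ZT2. No alpha, beta or gamma subunit passed the joint test inside clusters in edgeR, and at an unadjusted p under 0.05 there were 3 alpha, 1 beta and 2 gamma subunits.

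Receptor kinases, which silence receptors upstream of the G protein, passed the time test in 3 of 5 tested genes, where 44.0% of all tested genes did. *Grk2* had 95.6 CPM at ZT14 and 17.9 CPM at ZT2, *Grk5* 10.3 CPM at ZT18 and 2.95 CPM at ZT22, and *Grk6* 29.8 CPM at ZT18 and 10.7 CPM at ZT2. Of 5 other modulators of G alpha, *Ric8a*, a chaperone for alpha subunits, and *Gpsm1*, a GoLoco protein, passed. *Ric8a* had 67.0 CPM at ZT14 and 26.7 CPM at ZT2, and *Gpsm1* 53.7 CPM at ZT6 and 26.1 CPM at ZT22.

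The genes most like *Rgs16* were sought among 9610 other genes with a mean of at least 10 CPM, by the root mean square difference of centred log2 CPM over the 6 timepoint means. The 5 nearest were *Dusp1* (0.16), *Ptp4a1* (0.23), *Nr1d2* (0.24), *Sik1* (0.25) and *Bhlhe41* (0.26). *Dusp1* encodes a MAP kinase phosphatase, *Nr1d2* the clock repressor REV-ERB beta, *Sik1* a salt-inducible kinase and *Bhlhe41* the repressor DEC2. All 5 were highest at ZT6, which follows from choosing them by likeness to *Rgs16* over the same means. *Sik1*, for example, had 33.7 CPM at ZT2, 77.9 CPM at ZT6 and 21.8 CPM at ZT10. *Sik1* and *Bhlhe41* also passed the joint test inside clusters (edgeR adjusted p = 0.00492 and 0.00494). These calls are of genes chosen on the same values and are no separate result. By the same measure *Cacng3*, an AMPA receptor auxiliary subunit, was nearest to *Rgs4* (0.06) and *Golga7* to *Rgs10* (0.05). *Tmem63a* was nearest to *Rgs8* (0.18), *Trerf1* to *Rgs9* (0.22) and *Gsn* to *Rgs14* (0.39). Among the 10 genes themselves, the closest pair was *Rgs10* and *Rgs17* (0.43) and the farthest *Rgs16* and *Rgs14* (2.21), with *Rgs16* and *Rgs4* at 1.70.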

How the data were processed

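Paired-end reads of SMARTer-amplified RNA were trimmed and filtered by the authors, mapped to mm10 by GSNAP, and assigned to genes by HTSeq 0.5.4p1. The deposited table of whole-number read counts (30031 genes, 18 columns) has the 3 lanes of each replicate, 54 lane samples in all, already combined. A second table deposited by the authors holds normalized signal, counts divided by a size factor per column, and 100% of its values came out as whole reads within 0.01 reads. No sample column was left unused (0 columns).

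The filter kept the 18941 genes that had 1 read or more in over 6 replicates. edgeR 4.0.16 in R 4.3.3, with TMM scaling and its quasi-likelihood F-test in 1 fit to all 18 replicates, tested that the 6 timepoint means are equal, each step between neighbouring timepoints, and the 3 steps inside clusters jointly, with Benjamini–Hochberg adjustment over all tested genes. JTK_CYCLE was rewritten in Python 3.11.15 (two-sided exact null, period 24 hr, 6 lags, Bonferroni) and applied to CPM. Cycling genes passed both JTK_CYCLE and the time test. Alternatives used DESeq2 1.42.0, limma 3.58.1 (cosinor), other scalings and filters, the replicate letter as a block, the recovered reads and each replicate left out. The tests were checked on simulated counts. Positions and exon lengths come from GENCODE M21 on GRCm38, promoters from RefSeq.

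The 10 genes and the lists were chosen with earlier results of these data known. Named besides them are, in each list, up to 3 genes past the time test with the largest ratio of highest to lowest timepoint mean, the genes nearest in time course, neighbours of *Rgs16* and genes overlapping the 10. The result for 1 such gene is left out. *Rgs5*, *Rgs9bp* and the markers were named after their values were seen. The p-values measure the spread between pools of mice.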

Additional observations from a re-analysis of the deposited data

How the results depend on the processing

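Of 29 alternatives, 25 refitted the steps, and in these no called change of an RGS gene reversed. The time test called 5 to 8 of the 10 genes against 6, and *Rgs16*, *Rgs4*, *Rgs8*, *Rgs10* and *Rgs14* passed in all 25 refits. Inside clusters, *Rgs16* passed in every refit, and 2 of the 10 passed with DESeq2 and with no filter on low counts, *Rgs14* being the other. From ZT6 to ZT10 the count was 2 with DESeq2 and 0 with the replicate block, against 1. From ZT18 to ZT22 it was 4 with DESeq2 and 4 with upper-quartile scaling, against 2. Over all genes, DESeq2 called 4666 at that step, against 3435, and 9985 in the time test, against 8343. From ZT22 to ZT2 the count of the 10 genes was 0 with the replicate block, against 1. The cycling count of 4 became 2 on recovered reads, 2 on the values normalized by the authors, 1 with adjusted JTK_CYCLE p and 5 with cosinor regression. The twin-peaking count of 2 became 1 with DESeq2 size factors, 1 with no filter and 0 when ZT14 over ZT18 and ZT22 over ZT2 each had to reach an unadjusted p of 0.05. For *Rgs8* and *Rgs2* the step from ZT18 to ZT22 and that from ZT10 to ZT14 took the opposite sign with upper-quartile scaling (0.09 and −0.01), and neither was called. That scaling moved the median of all genes by −0.15 from ZT10 to ZT14 and 0.15 from ZT18 to ZT22.

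With each replicate left out, the counts ran from 5 to 7 for the time test, 1 to 1 inside clusters, 2 to 5 for cycling and 1 to 3 for twin-peaking. For the steps they ran from 3 to 6 (ZT2 to ZT6), 0 to 1 (ZT6 to ZT10), 3 to 4 (ZT10 to ZT14), 0 to 0 (ZT14 to ZT18), 1 to 3 (ZT18 to ZT22) and 0 to 1 (ZT22 to ZT2). The cycling count fell to 2 without ZT2 replicate C or ZT22 replicate C. Over all genes the joint test inside clusters called 22, from 8 to 71 with a replicate left out and 788 with DESeq2. From ZT6 to ZT10 all genes called numbered 9, and 246 with DESeq2.

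Replicate letters shared between timepoints did not pair the pools. Same-letter deviations correlated between −0.27 and 0.096 over 45 pairs, and none of the 45 exceeded 0.1. With the letter as a replicate block 5 of the 10 passed the time test, *Rgs9* being the loss (adjusted p = 0.0621), and the steps of *Rgs16* from ZT6 to ZT10 and from ZT22 to ZT2 had adjusted p of 0.0583 and 0.0720. Precision was limited by 3 pools per timepoint. *Rgs6* and *Rgs7* were not tested under a minimum of 10 counts in every replicate, since both fell below it in ZT18 replicate C.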

Other observations

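Reads differed between the deposited tables at ZT6 and ZT10, for genes in general and not the RGS genes alone. They were identical for 36.8% to 47.1% of shared genes in these replicates and for 94.7% to 96.3% in the others. The steps from ZT2 to ZT6 and from ZT10 to ZT14 enter and leave this cluster. With the recovered reads, *Rgs8* lost its call from ZT2 to ZT6, and *Rgs7* and *Rgs17* were added. From ZT10 to ZT14 the same RGS genes were called as with the counted reads. At the other 4 timepoints the reads recovered from the normalized table summed to those of the count table within 2 reads for each of the 10 genes. At ZT6 and ZT10 together, the recovered reads were 40.7% of the counted reads for *Rgs7* (519 of 1276), 65.7% for *Rgs6* (393 of 598), 78.5% for *Rgs10* (7601 of 9681) and 78.8% for *Rgs9* (2438 of 3093). They were 89.0% for *Rgs14*, 92.0% for *Rgs17* and 97.2% to 97.6% for *Rgs16*, *Rgs2*, *Rgs4* and *Rgs8*. The levels of *Rgs7*, *Rgs6*, *Rgs10* and *Rgs9* at ZT6 and ZT10 therefore depend on which table is read, while the joint test inside clusters for *Rgs16* gave an adjusted p of at most 0.0169 over DESeq2, other scalings and filters, the replicate block and the recovered reads.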
